A study of Mus musculus with 4 samples.

Results

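The 8 genes described here encode enzymes of cholesterol synthesis and proteins that control it. They were chosen by gene symbol, as every probe set that the platform annotation assigns to Hmgcs1, Idi1, Fdft1, Sqle, Lss, Cyp51, Insig1 or Srebf2. The rule found 21 probe sets for the 8 genes, of 34945 probe sets with a single symbol for 18193 genes on the array. RNA came from primary keratinocytes, the epithelial cells of the epidermis, isolated from newborn C57BL/6 mice. Of 4 Affymetrix arrays, 1 was from WT cells without irradiation, 1 from WT cells 4 h after ultraviolet B (UVB) at 75 mJ/cm2, 1 from unirradiated cells labelled p38a-KO, and 1 from such cells 4 h after the same UVB dose. p38a is the stress-activated kinase encoded by Mapk14. The labels carry the code K14C for the p38a-KO samples without spelling it out, and give neither the deleted part of the gene nor the number of animals behind a culture. No control incubated for 4 h without UVB is named, so UVB cannot be told apart from time in culture and handling.

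Cholesterol is built from acetyl units through mevalonate, isoprenoids, squalene and lanosterol. The transcription factor SREBP-2 switches on the genes of this pathway when sterols in the endoplasmic reticulum are low, and Insig proteins hold its precursor there when sterols are plentiful. The SREBP precursor is cut by proteases of the Golgi, and the part released enters the nucleus. In the epidermis the pathway supplies cholesterol to the lipid layers of the permeability barrier.

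SREBP-2 works at sterol response elements beside sites for NF-Y and Sp1, so the promoters of the members were searched for these motifs. RefSeq promoter sequence (GRCm38.p6) was at hand for 6 of the 8 members, and the 250 bases before the annotated start were searched on both strands. The sterol response element core TCACNCCA was found in 2 of the 6, Hmgcs1 and Srebf2, and in 3.67% of all 32851 promoters of that table. CCAAT, the NF-Y box, was found in 6 of 6 and in 33.8% of all promoters. GGGCGG, the Sp1 box, was found in 6 of 6 and in 32.7%, and the E-box CACGTG in 1 of 6, Insig1, and in 6.02%. The 4 promoters below were those with the core first, then those with the larger fall in signal after UVB. These genes had lower signal after UVB as deposited, as did most genes tested, and a link between the motifs and the fall was not tested. The capitals mark TCACNCCA and CCAAT on either strand, where ATTGG is CCAAT read on the other strand. No marked motif overlapped another in these windows.
Hmgcs1 (chr13:119690101-119690350, plus strand): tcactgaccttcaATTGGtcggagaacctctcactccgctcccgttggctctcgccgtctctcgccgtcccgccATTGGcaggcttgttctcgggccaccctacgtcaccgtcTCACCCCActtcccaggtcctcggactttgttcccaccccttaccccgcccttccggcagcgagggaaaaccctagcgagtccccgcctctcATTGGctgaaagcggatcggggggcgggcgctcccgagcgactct
Srebf2 (chr15:82147019-82147268, plus strand): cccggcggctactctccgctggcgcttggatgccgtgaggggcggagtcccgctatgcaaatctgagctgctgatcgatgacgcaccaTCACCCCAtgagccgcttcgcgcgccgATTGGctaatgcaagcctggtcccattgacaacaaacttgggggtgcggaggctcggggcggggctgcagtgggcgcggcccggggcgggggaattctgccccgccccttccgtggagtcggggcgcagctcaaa
Insig1 (chr5:28071162-28071411, plus strand): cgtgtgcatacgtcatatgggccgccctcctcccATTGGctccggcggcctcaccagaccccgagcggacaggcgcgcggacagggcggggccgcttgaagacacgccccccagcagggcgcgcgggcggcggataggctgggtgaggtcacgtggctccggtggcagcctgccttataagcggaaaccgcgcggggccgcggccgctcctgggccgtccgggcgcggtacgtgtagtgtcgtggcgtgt
Cyp51 (chr5:4104698-4104947, minus strand): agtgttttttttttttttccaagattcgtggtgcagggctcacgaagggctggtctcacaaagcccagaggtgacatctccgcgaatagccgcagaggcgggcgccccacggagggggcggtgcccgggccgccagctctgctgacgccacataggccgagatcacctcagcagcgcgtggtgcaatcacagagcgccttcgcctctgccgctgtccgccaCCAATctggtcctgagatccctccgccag
In both Hmgcs1 and Srebf2 the core reads TCACCCCA. It begins 137 bases before the start of Hmgcs1 and 162 bases before the start of Srebf2. A CCAAT box lies on either side of it in Hmgcs1, and in Srebf2 the single CCAAT box begins 135 bases before the start. A match describes these letters and is not a measured site.

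Signal is the MAS5 value of a probe set in arbitrary units on a linear scale. A floor of 24.9 units, the median over probe sets of mean signal, replaced lower values, and 11379 genes averaged at least that much. Each gene is represented by its brightest probe set unless another is named. Signal fell across the array after UVB, by a median log2 difference over the 11379 genes of -0.70 for WT and -0.82 for KO-labelled cells. The 18 hybridisation spike-in probe sets had medians of 0.01 and 0.12. In bulk RNA, fewer cells of a type and less RNA per cell cannot be told apart. Mapk14 read 985 and 293 units in WT cells without and with UVB and 1449 and 647 in KO-labelled cells, so these values do not check the genotype label, and every genotype direction rests on the labels. All 10 keratinocyte markers, Krt5 and Krt14 among them, were at or above the floor on all 4 arrays.

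All 8 members had lower signal 4 h after UVB in both genotypes, as deposited. Sqle and Hmgcs1 fell most, by 4.97-fold and 4.61-fold in WT cells, and Idi1 least, by 1.77-fold. The median of the 8 log2 differences was -1.23 for WT and -1.17 for KO-labelled cells. In WT cells 7 of 8 members were at least 2-fold lower, where 34.8% of all genes tested were, and in KO-labelled cells 5 of 8 were, where 39.3% were. The members were chosen with earlier results of these data known, so this contrast is a description and not a test. Each group has 1 array, so these single differences have no replicate check. A limma model with irradiation and genotype as additive terms, fitted over all genes, called 8 of 8 members lower after UVB at an adjusted p under 0.05, but it called 69.4% of all genes lower. The model has 1 residual degree of freedom, the disagreement between the genotypes' responses, and its p-values do not measure the spread between cultures.

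**Figure D1:**
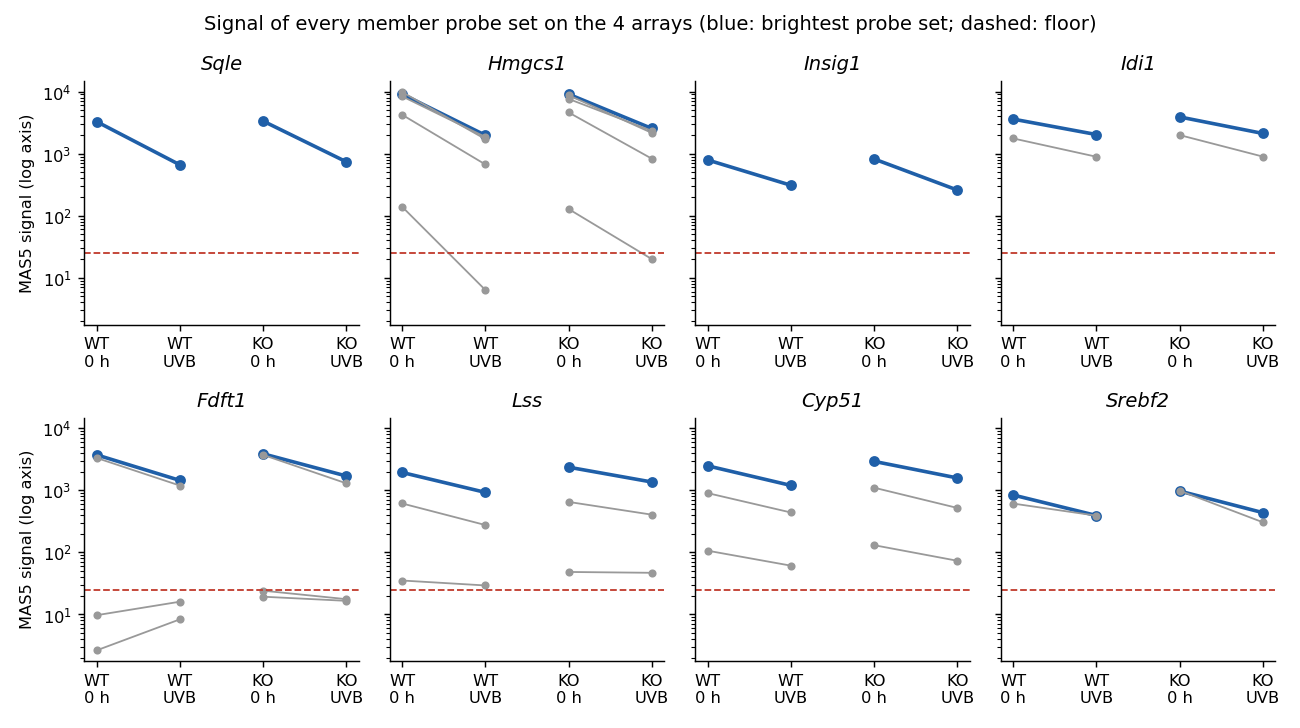
MAS5 signal (log axis) of the 21 probe sets of the 8 genes on the 4 arrays, with the brightest probe set of each gene in blue, the others in grey and the floor of 24.9 units as a dashed line. The 8 blue lines fall from unirradiated to UVB in both genotypes, and 2 dim Fdft1 probe sets stay under the floor throughout.

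Hmgcs1 encodes the cytosolic HMG-CoA synthase, which makes the precursor of mevalonate. Its brightest probe set read 9125 units in unirradiated WT cells, 1980.5 after UVB in WT, 9100.5 in unirradiated KO-labelled cells and 2549 after UVB in KO-labelled cells. Both irradiated arrays were low, and the unirradiated arrays were nearly equal. The fall was 4.61-fold in WT and 3.57-fold in KO-labelled cells, and the log2 effect over both genotypes was -2.02 (SE 0.11, limma adjusted p = 2.75e-06). The gene has 5 probe sets, of which 4 were above the floor on all arrays, and their falls ran from 4.52-fold to 6.32-fold in WT and from 3.27-fold to 5.57-fold in KO-labelled cells. The fifth probe set read 139 and 128 units without UVB and lay under the floor after it, which makes it lower by at least 5.58-fold in WT and by at least 5.15-fold in the KO-labelled culture. All 5 probe sets therefore pointed down.

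Idi1 encodes isopentenyl diphosphate isomerase, which interconverts the building blocks of isoprenoids. Signal was 3607 units without and 2034 with UVB in WT cells, and 3913 without and 2119.7 with UVB in KO-labelled cells. The irradiated arrays were again lowest, but the falls of 1.77-fold and 1.85-fold were under 2-fold and close to the array-wide medians of 1.63-fold and 1.76-fold. The limma effect was a fall by 0.86 (SE 0.09, limma adjusted p = 4.15e-05), and with the arrays centred on their medians it turned to a rise of 0.24 (limma adjusted p = 0.0378). With that centring the median gene also rose, by 0.32 in WT and 0.27 in KO-labelled cells, and Idi1 lay below it in both. Limma then called 37.1% of all genes higher. A dimmer probe set of Idi1 was 1.97-fold and 2.22-fold lower.

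Fdft1 encodes squalene synthase, the first enzyme committed to sterols. Its brightest probe set read 3735 units without and 1448 with UVB in WT cells, and 3889 without and 1706 with UVB in KO-labelled cells. The unirradiated values were the higher ones in both genotypes, by 2.58-fold in WT and 2.28-fold in KO-labelled cells (fall by 1.28, SE 0.10, limma adjusted p = 7.47e-06). A second probe set of similar brightness was 2.79-fold and 2.88-fold lower. The remaining 2 were below the floor on all 4 arrays and give no difference.

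Sqle encodes squalene epoxidase, which adds oxygen to squalene in a rate-limiting step. It has 1 probe set, which read 3284 units without and 661 with UVB in WT cells, and 3357 without and 739.8 with UVB in KO-labelled cells. Both irradiated values were low and the genotypes lay close together in each condition. The fall was 4.97-fold in WT and 4.54-fold in KO-labelled cells, and it fell by 2.25 over both (SE 0.10, limma adjusted p = 2.37e-06). Only 3.71% of all genes tested had a lower WT difference than Sqle, and 4.68% a lower one than Hmgcs1. In KO-labelled cells the corresponding shares were 5.09% and 10.4%.

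Lss encodes lanosterol synthase, which closes the sterol rings. Signal was 1943 units without and 928 with UVB in WT cells, and 2366 without and 1364 with UVB in KO-labelled cells. The irradiated arrays were lower in both genotypes and the KO-labelled array was the higher one in both conditions. The falls were 2.09-fold in WT and 1.73-fold in KO-labelled cells (fall by 0.93, SE 0.11, limma adjusted p = 6.90e-05). Of the other 2 probe sets, the brighter was 2.23-fold and 1.60-fold lower, and the dim one, at 29.3 to 48.4 units, had log2 differences of -0.26 and -0.05.

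Cyp51 encodes the demethylase that acts on lanosterol. The 4 values were 2485 units without and 1202 with UVB in WT cells, and 2934 without and 1586 with UVB in KO-labelled cells. As for Lss, the irradiated arrays were lower and the KO-labelled arrays higher. The falls were 2.07-fold and 1.85-fold (fall by 0.97, SE 0.10, limma adjusted p = 3.33e-05), and the other 2 probe sets gave 2.05-fold and 2.12-fold, and 1.74-fold and 1.78-fold. With median centring Lss and Cyp51 did not fall, with limma effects of 0.17 (adjusted p = 0.202) and 0.13 (adjusted p = 0.273).

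Insig1 and Srebf2 belong to the control of the pathway. Insig1, which retains the SREBP precursor in the endoplasmic reticulum and is itself a target of SREBP, read 791 units without and 309.5 with UVB in WT cells, and 821 without and 259 with UVB in KO-labelled cells. After UVB it fell 2.56-fold in WT and 3.17-fold in KO-labelled cells, the larger fall being in KO-labelled cells (fall by 1.51, SE 0.13, limma adjusted p = 1.59e-05). Srebf2, which encodes SREBP-2, read 842 and 393 units without and with UVB in WT cells and 976 and 438 in KO-labelled cells. It was 2.14-fold and 2.23-fold lower (fall by 1.13, SE 0.12, limma adjusted p = 3.71e-05). Its second probe set read 613, 391, 989 and 306 units in the same order, a fall of 1.57-fold in WT and 3.23-fold in KO-labelled cells, so the probe sets of Srebf2 differ on how the genotypes compare. With median centring the Srebf2 limma effect was -0.03 (adjusted p = 0.85).

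Where a gene had several probe sets above the floor on all arrays, these gave a measure of technical spread. Over 6 genes with 16 such probe sets, the pooled SD of the log2 UVB difference between probe sets of a gene was 0.28 for WT and 0.31 for KO-labelled cells. By the brightest probe sets, Sqle, Hmgcs1, Insig1, Fdft1 and Srebf2 differed from the array-wide median by more than this spread in both genotypes. Lss and Cyp51 did so in WT cells only, and Idi1 in neither genotype. Probe sets of a gene share the array and the RNA, so this spread does not stand for cultures.

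**Figure D2:**
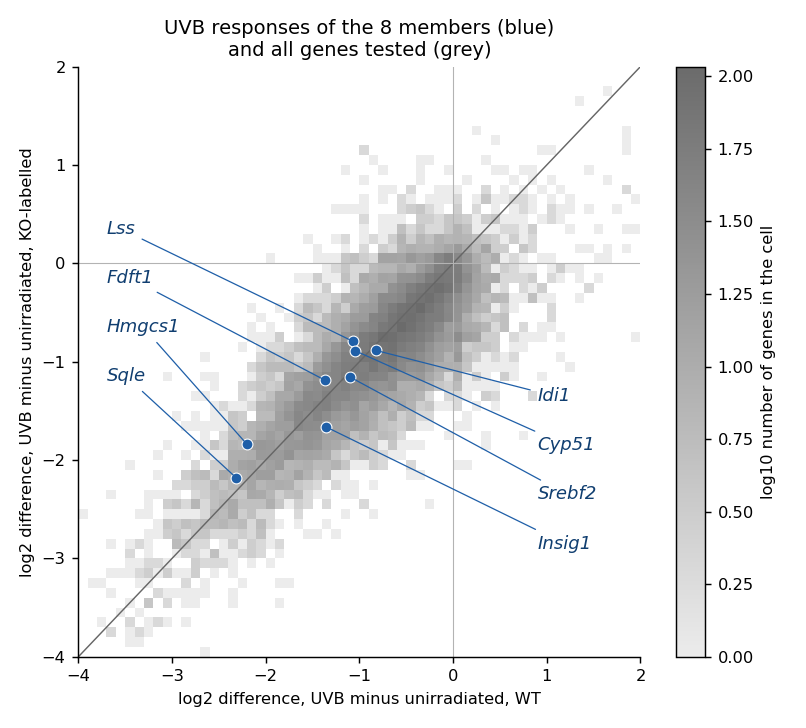
log2 difference between UVB and no irradiation in WT (x axis) and KO-labelled cells (y axis) for the 8 genes in blue and for the tested genes in grey, shaded by the log10 number of genes in a cell of the plot. The plot shows 11366 of 11379 genes; Sqle and Hmgcs1 lie farthest down among the 8, and Insig1 is the member farthest below the diagonal.

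The size of a fall on these arrays depends on the scaling, and so do most of the folds above. After quantile normalization, where the median of all genes was 0.05 in both genotypes, the median of the members was -0.62 for WT and -0.63 for KO-labelled cells, with 8 of 8 members still lower in limma against 20.6% of genes. Falls of 2-fold or more were left for 2 of 8, Sqle and Hmgcs1, in each genotype, against 9.66% of genes in WT and 8.38% in KO-labelled cells. After median centring, where the medians of all genes were 0.32 and 0.27, the member medians were -0.16 and -0.04. Then 3 of 8 members, Sqle, Hmgcs1 and Insig1, fell in limma against 15.6% of genes, and 1, Idi1, rose against 37.1%. Falls of 2-fold or more remained for 2 of 8 in WT, against 7.58% of genes, and for 1 of 8 in KO-labelled cells, against 6.71%. Relative to the median of all genes, the WT difference was lower for 8 of 8 members as deposited and with quantile normalization. For KO-labelled cells the count was 7 of 8 as deposited, the exception being Lss, and 8 of 8 with quantile normalization. Centring shifts the genes of an array alike except near the floor, so its counts, 8 of 8 and 7 of 8, add little to the as-deposited ones. Sqle was at least 2-fold lower in both genotypes under all 3 scalings, and Hmgcs1 was too, except in KO-labelled cells with centring, where its difference was -0.71.

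The array-wide shift also differs with brightness, so the members, with mean signals of 545 to 5689 units, were set beside genes of like signal, a range chosen with the values known. Among 3168 other genes between 400 and 6400 units the median log2 difference was -0.53 (WT) and -0.62 (KO-labelled). In this range 22.2% were at least 2-fold lower in WT and 25.9% in KO-labelled cells. Lower differences than that of Sqle were seen for 1.89% of them in WT and 2.53% in the KO-labelled culture. For Hmgcs1 these shares were 2.30% and 5.37%, for Insig1 12.2% and 7.17%, and for Fdft1 11.96% and 18.6%. They were 18.9% and 19.6% for Srebf2, 20.5% and 31.5% for Cyp51, 19.9% and 37.5% for Lss, and 30.8% and 31.7% for Idi1.

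**Figure D3:**
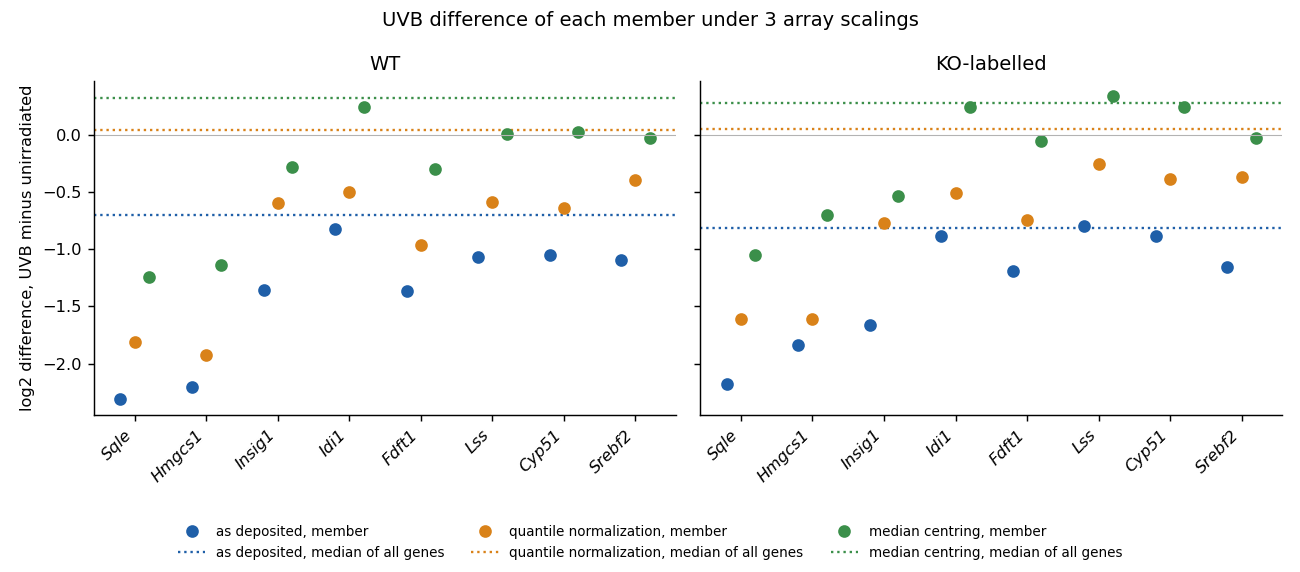
log2 difference between UVB and no irradiation for each of the 8 genes in WT (left) and KO-labelled cells (right), as deposited (blue), after quantile normalization (orange) and after median centring (green), with the median of all genes under each scaling as a dotted line. Sqle and Hmgcs1 stay far under the dotted lines, and Lss in KO-labelled cells lies above 2 of the 3.

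The other enzymes of the pathway, from a list of 16 of which 13 were measured, were lower after UVB as deposited. As deposited, 12 of 13 fell in limma and 0 rose, against 69.4% and 0.703% of all genes, and their median log2 difference was -0.84 for WT and -0.73 for KO-labelled cells, close to the medians of all genes. Msmo1, a sterol oxidase acting after Cyp51, read 5062 and 1624 units in WT and 5180 and 1661 in KO-labelled cells without and with UVB. Its limma effect was -1.64 (SE 0.09, limma adjusted p = 2.92e-06). Lbr, a sterol reductase and nuclear envelope protein, fell by 1.38, and Hsd17b7, a sterol ketoreductase, fell by 1.21. The smallest effects were those of Fdps, farnesyl diphosphate synthase, which fell by 0.44, and Tm7sf2, another sterol reductase, at -0.29 (limma adjusted p = 0.183). After quantile normalization 7 of 13 fell and 1 rose, and after median centring 2 fell and 7 rose, where 20.4% and 37.1% of all genes rose.

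Genes of SREBP processing were lower as well, with 9 of 11 falling and 0 rising as deposited, against 69.4% and 0.703% of all genes. The medians of the list, -0.77 for WT and -0.77 for KO-labelled cells, lay close to the -0.70 and -0.82 of all genes. Mbtps1 and Mbtps2, the proteases that cut the SREBP precursor, fell by 1.17 and fell by 1.22, and Rnf139, a ubiquitin ligase of the endoplasmic reticulum, fell by 1.53. Ufd1, a factor of protein extraction from that membrane, fell by 0.40, and Pgrmc1, a membrane heme-binding protein, had an effect of 0.10 (limma adjusted p = 0.306). With quantile normalization 2 fell and 3 rose, where 20.6% and 20.4% of all genes did, and with centring 1 fell and 6 rose, where 15.6% and 37.1% did.

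Genes of sterol uptake, trafficking, storage and export gave 12 of 14 falling and 0 rising, where 69.4% of all genes fell and 0.703% rose. The list had medians of -0.70 for WT, close to that of all genes, and -1.03 for KO-labelled cells, against -0.82. Stard4, a carrier of cholesterol between membranes, read 1355 and 347 units in WT and 1201 and 334 in KO-labelled cells without and with UVB, with a limma effect of -1.91 (SE 0.12, limma adjusted p = 3.65e-06). Stard3, another sterol carrier, fell by 1.87, and Lrp8, a lipoprotein receptor family member, fell by 1.71. Npc2, a lysosomal sterol carrier, had an effect of -0.01 (limma adjusted p = 0.952). Nr1h3, a nuclear receptor for oxysterols, was below the floor on both WT arrays and at 39.0 and 28.4 units in KO-labelled cells. With quantile normalization 3 of 14 fell and 0 rose, against 20.6% and 20.4% of genes, and with centring 3 fell and 3 rose, against 15.6% and 37.1%.

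Fatty acid synthesis genes that SREBP also drives spread widely, and 11 of 12 fell and 0 rose as deposited, beside 69.4% and 0.703% of all genes. Elovl6, a fatty acid elongase, fell by 1.97, Lpin1, a phosphatidate phosphatase, fell by 1.87, and Fasn, fatty acid synthase, fell by 1.57. Scd2, a desaturase, fell by 0.38, and Fads1, another desaturase, had an effect of -0.35 (limma adjusted p = 0.12). The medians of this list, -0.62 in WT and -0.69 in KO-labelled cells, lay just above those of all genes. With quantile normalization 5 of 12 fell and 3 rose, beside 20.6% and 20.4% of genes, and with centring 3 fell and 6 rose, beside 15.6% and 37.1%.

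**Figure D4:**
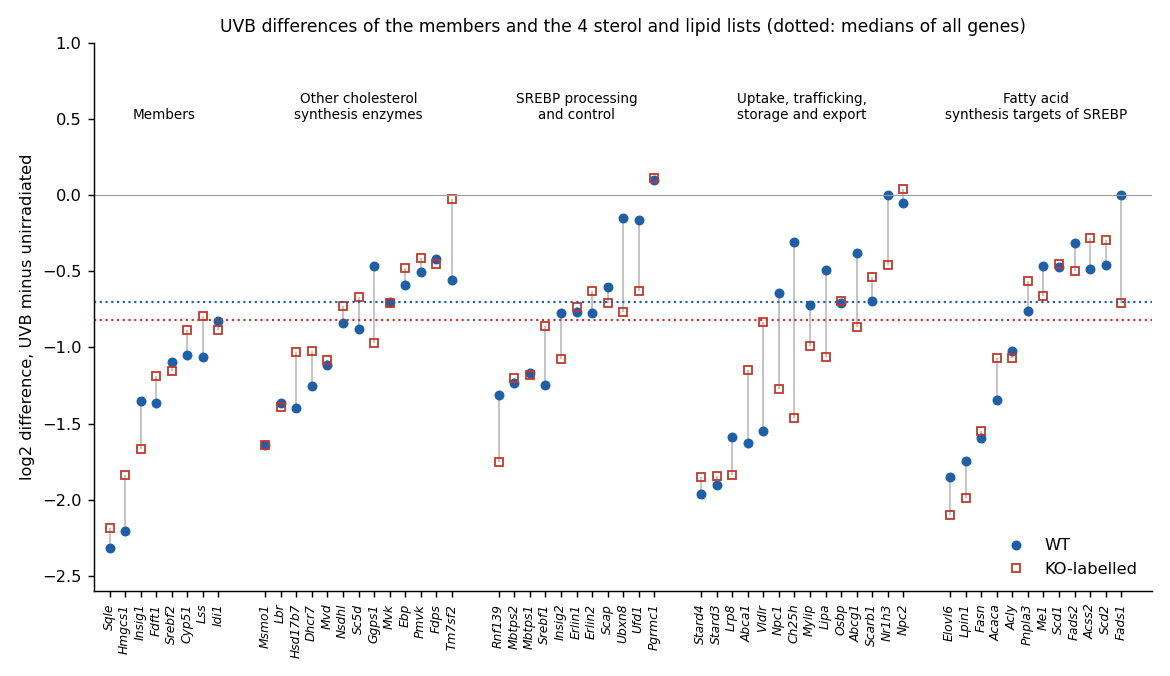
log2 difference between UVB and no irradiation in WT (filled circles) and KO-labelled cells (open squares) for the 8 genes and for the measured genes of the 4 other lists, with the medians of all genes as dotted lines. Sqle and Hmgcs1 have the lowest WT values shown; Stard4, Stard3 and Elovl6 are the next lowest, and Pgrmc1 is above 0 in both genotypes.

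Between the genotypes no member differed by 2-fold or passed the limma threshold as deposited. None of the 8 was 2-fold apart in unirradiated cells, where 2.36% of all genes were, or after UVB, where 2.88% were. In limma 0 of 8 differed by genotype over both conditions, against 1.61% of genes, and 2 of 8, Lss and Cyp51, had an unadjusted p under 0.05, against 17.4%. In unirradiated cells the KO-labelled value ranged from nearly equal for Hmgcs1, with a log2 difference of -0.004, to 1.22-fold higher for Lss. The median of the 8 was 0.09, and that of all genes 0.16. KO-labelled signal was the higher for 7 of 8 members, where it was for 73.1% of genes. With quantile normalization it was for 4 of 8 against 49.4%, and with centring for 3 of 8 against 48.1%. The Lss effect over both conditions was 0.42 (SE 0.11, limma adjusted p = 0.1004), and adjusted p ran from 0.0489 to 0.99996 over the settings tried. Cyp51 had an effect of 0.32 (SE 0.10, limma adjusted p = 0.155, from 0.114 to 0.99996 over the settings). Both upper ends came from the fit with genotype alone, which leaves the irradiation difference in the residual and so could hardly call a gene. In the other settings the largest limma adjusted p was 0.372 for Lss and 0.435 for Cyp51.

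After UVB 7 of 8 members were higher in KO-labelled than in WT cells, where 55.9% of all genes were. Lss was 1.47-fold higher, Cyp51 1.32-fold, Hmgcs1 1.29-fold and Fdft1 1.18-fold, and Insig1 was the exception, 1.19-fold higher in WT. The same count was 7 of 8 with quantile normalization, against 51.4% of genes, and 6 of 8 with centring, against 47.1%. For Hmgcs1 the 4 probe sets above the floor gave log2 differences of 0.31 to 0.36 between the irradiated arrays, and for Lss 3 gave 0.56 to 0.68. The probe sets of Srebf2 disagreed, with 0.15 for the brighter, which entered the count, and -0.35 for the dimmer. Among the other cholesterol enzymes 12 of 13 were higher in irradiated KO-labelled cells, against 55.9% of genes, and 11 with centring, against 47.1%. Their median log2 difference between the genotypes was similar without UVB, at 0.20, and after it, at 0.23. The medians of all genes were 0.16 and 0.05. None of these single differences has a test. The summed signal of 9 fibroblast markers was also higher in KO-labelled cells, at 6885 against 3584 units without UVB and 4782 against 2803 after it. By genotype 5 of the 9 differed in limma, against 1.61% of all genes, while Pdgfra, Pdgfrb, Lum and Dcn did not. The sum of 7 melanocyte markers was 8582 against 6148 units without UVB and 5619.95 against 4823 after it. None of the 7 differed by genotype in limma, and after UVB Sox10 was lower in KO-labelled cells, at 50.3 against 62.4 units. The 10 keratinocyte markers summed to 50936 against 49926 without UVB and 43205 against 40292 after it. Among them Krt1 and Krt10, keratins of differentiating cells, differed by genotype. Krt10 was 1.77-fold higher in KO-labelled cells without UVB and 2.59-fold after it (limma adjusted p = 0.00698), and Krt1 1.41-fold and 2.44-fold (limma adjusted p = 0.036). Of 5 sebocyte markers measured, 0 were above the floor on all arrays, of 3 adipocyte markers 3 were below it on all arrays, and Ptprc, Cd207, Cd3e and Itgam of 6 leukocyte markers were too, as were Pecam1 and Tek of 4 endothelial markers. The leukocyte marker Cd68 read 383 and 479.97 units without and with UVB in WT cells and 269 and 298 in KO-labelled cells, and Adgre1 29.1 to 44.3 units on the 4 arrays. The part of other cell types or of differentiation in the genotype differences was not tested.

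The UVB responses of the genotypes were set side by side for each member. The response of KO-labelled minus WT cells ran from -0.31 for Insig1 to 0.37 for Hmgcs1, with a median of 0.15 over the 8 members and -0.08 over all genes. It was below 0, a larger fall in KO-labelled cells, for 3 of 8 members, Insig1, Idi1 and Srebf2, where it was for 59.8% of genes. The sign depended on the probe set for Fdft1 and Cyp51. Their brightest probe sets gave 0.18 and 0.16, but the second of Fdft1 gave -0.05 and the dimmer ones of Cyp51 -0.05 and -0.03. With the brightest probe sets the response was above the median of all genes for 7 of 8 members as deposited and with centring, and for 6 of 8 with quantile normalization. With 1 array a group this difference of responses cannot be tested.

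Srebf1, which encodes the related factor SREBP-1, was singled out after its values were seen. It was the 1 gene of the 4 lists that differed by genotype in limma as deposited, where 1.61% of all genes did. The lists held 13, 11, 14 and 12 tested genes, so 1 call among them is near that share. Srebf1 read 577 units without and 243 with UVB in WT cells, and 833 without and 459.97 with UVB in KO-labelled cells. The KO-labelled value was higher in both conditions, with an effect of 0.72 (SE 0.14, limma adjusted p = 0.0423). It passed in 6 of 10 settings, with adjusted p from 0.00675 to 0.99996. The upper end was again the fit with genotype alone, and the largest limma adjusted p in the other settings was 0.302. After UVB it fell by 1.05.

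Genes outside the pathway had profiles over the 4 arrays close to that of the members. Profiles were centred on each gene's own mean log2 signal and compared with the mean profile of the 8 by root mean square distance. The 5 nearest other genes were Trappc10, of a vesicle tethering complex, the proliferation marker Mki67, the cochaperone gene Bag2, the histone chaperone gene Nasp and the repair gene Rad50, at distances of 0.012 to 0.023 log2 units. Trappc10 read 498 and 188 units without and with UVB in WT cells and 534 and 214 in KO-labelled cells. Fdft1, the member nearest to the mean, was at 0.051, and 62 of 11371 other genes were nearer. Sqle, at 0.44, was farther from it than 57.3% of other genes. Over 4 arrays such likeness is a weak description.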

How the data were processed

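Gene expression was measured on 4 Affymetrix 3' expression arrays, 1 for each of 4 groups taken from the sample titles. The authors deposited a linear signal intensity for each probe set, made with MAS5 per the submitters' processing notes. Its version, scaling target and detection calls were not used here. Intensities were taken as deposited, and array number limits the precision of every value.

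Symbols came from the platform annotation, and only probe sets with a single symbol were kept. Values below 24.9 units, the 50th percentile of mean signal over probe sets, were raised to it before log2. A gene counted as changed at 2-fold. Each gene took its brightest probe set. limma 3.58.1 in R 4.3.3 fitted log2 signal of the 11379 genes at or above the floor on irradiation and genotype, with an intensity trend and Benjamini-Hochberg adjustment at 0.05 over all genes. The fit was tested on simulated data, which does not check its p-values on these arrays, with 1 array a group. Promoter sequences were those of RefSeq, GRCm38.p6.

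The members and lists were chosen with earlier results of these data known. All members were named, with the 3 largest and 2 smallest limma effects of each list, the 5 nearest profiles and Mapk14. Some genes of the pathway are not reported here.

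Alternatives were quantile normalization, centring of arrays on their medians, floors at 9.38 and 128.9 units, 1.5-fold and 3-fold thresholds, the mean over probe sets, leaving out probe sets marked _x_ or _s_, limma without the trend or with only the tested factor, and limma over all probe sets.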

Additional observations from a re-analysis of the deposited data

Results flagged for a closer look

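For 3 members a probe set at or above the floor on all arrays had KO-labelled signal on opposite sides of WT in unirradiated and irradiated cells. These differences were not tested, since each group has 1 array. For Hmgcs1 this held for 3 of its probe sets, whose UVB response was higher in KO-labelled than in WT cells by 0.37, 0.50 and 0.47 on the log2 scale. In the first of them the unirradiated arrays differed by only -0.004. The other Hmgcs1 probe set above the floor on all arrays gave 0.18, with KO-labelled signal above WT in both conditions. For Insig1 the response in KO-labelled minus WT cells was -0.31, from 0.05 without UVB to -0.26 after it. The dimmer probe set of Srebf2 gave -1.04, from 0.69 without UVB to -0.35 after it, whereas the brighter one gave -0.06.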

How the results depend on the processing

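With 1 array a group, values near the floor and the scaling limit what can be said. No paired analysis was possible because the labels give no replicate numbers shared between groups, though the additive model compares irradiation within genotype, and no array could be left out of the fit. The count of members at least 2-fold lower in WT, 7 as deposited, was 2 with quantile normalization, 2 with median centring, 3 with the mean over probe sets and 2 at 3-fold. In KO-labelled cells the count of 5 became 2 with quantile normalization, 1 with centring, 8 at 1.5-fold and 3 at 3-fold. In limma 3 members fell with centring in place of 8, and 1 member, Lss, differed by genotype with a floor of 9.38 units. Of the other cholesterol enzymes 7 fell with quantile normalization and 2 with centring in place of 12. The median UVB difference of the members in WT was -0.62 with quantile normalization, -0.16 with centring and -0.93 with the mean over probe sets, and in KO-labelled cells -0.63 and -0.042 with the first and second. These counts and medians changed by less in the other 54 comparisons with an alternative.

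With median centring the WT differences of Idi1, Lss and Cyp51 were 0.24, 0.0038 and 0.021, and limma effects turned positive for Idi1 (0.24), Lss (0.17), Cyp51 (0.13), Fdps (0.66), Tm7sf2 (0.81), Ufd1 (0.70), Npc2 (1.09), Nr1h3 (0.34), Scd2 (0.72) and Fads1 (0.75). With quantile normalization they did so for Tm7sf2 (0.73), Ufd1 (0.38), Npc2 (0.20), Nr1h3 (0.24) and Fads1 (0.60). Centring also turned the KO-labelled differences of Idi1 (0.25), Lss (0.34) and Cyp51 (0.24) positive. Quantile normalization brought the all-gene median difference to 0.05 for either genotype. Centring instead turned it positive, to 0.32 (WT) and 0.27 (KO-labelled), so the median gene changed sign with it too. The cause of the changes in sign was not tested.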
